A study of Mus musculus with 7 samples.

Results

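Resident cardiac macrophages are represented here by 8 marker genes, namely Timd4, Lyve1, Folr2, Cd163, Mrc1, Cbr2, F13a1 and Vsig4. They were taken by symbol from a table of 23420 gene rows, and each matched exactly 1 row. The table comes from bulk RNA sequencing of 7 mouse hearts, a study of myocarditis linked to immune checkpoint inhibitors (ICI), drugs that block the T cell receptors CTLA-4 and PD-1. The 4 control hearts were Ctla4+/+ and Pdcd1-/-, and the 3 ICI-myocarditis hearts were Ctla4+/- and Pdcd1-/-, so the controls lacked Pdcd1 as well. All mice were 3 to 6 weeks old and labelled as untreated. The disease state thus came from inherited alleles and not from a drug. The RNA was total RNA of flash-frozen ventricle, although the tissue label reads whole heart. The comparison asked which of these genes differed between the ICI-myocarditis and the control hearts.

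The heart holds macrophages that settle before birth and then renew themselves locally with little input from blood monocytes. They lie between muscle cells and along vessels, take up dying cells and cell debris, and are known by surface proteins such as TIMD4, LYVE1 and FOLR2. Monocytes that enter an injured heart carry CCR2 and can become macrophages that lack some of these proteins. None of the 8 genes is exclusive to resident macrophages. Lyve1 also marks lymphatic endothelium, F13a1 is also expressed by monocytes and platelets, Mrc1 by dendritic and lymphatic endothelial cells, and Vsig4 and Timd4 by macrophages of the liver.

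The libraries held 20931730 to 39037176 reads assigned to genes, recovered from the deposited normalized counts. The 6 cardiomyocyte markers summed to at least 1729959 normalized counts in every library. Pdcd1 reads were present in all 7 libraries (2.5 to 244 normalized counts in controls, 1096 to 1481 in ICI-myocarditis) and Ctla4 was higher where 1 copy is missing (log2 fold change 2.40), so neither gene checked the genotype labels. Control 2 had more T cell RNA than the other controls, with the 5 T cell markers in the table summing to 946 normalized counts, against 60.1 in the lowest control and 3936 to 5924 in ICI-myocarditis. Control 4 was the only library with fibrinogen transcripts of liver type above trace level, with Fga at 45.04, Fgb at 27.5 and Fgg at 28.8 normalized counts, where the others held 0, except for Fgb at 1.02 in ICI-myocarditis 1. These genes were picked after their values were seen. Clec4f, which marks liver macrophages, was at 7.51 in control 4, 6.17 in control 2 and at most 1 read in the other 5 libraries. Members are therefore also given without these 2 controls where a call depends on them.

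All 8 genes passed the filter, which asks for 10 or more normalized counts in 3 or more libraries. Tests used limma on log2(normalized count + 1) over 15258 genes, and a gene was called when its Benjamini-Hochberg adjusted p was below 0.05. Fold changes are on that log2 scale, where the added 1 shrinks the change of genes with few counts. Of the 8 genes, F13a1, Cd163 and Cbr2 fell and Mrc1 rose in ICI-myocarditis, while Timd4, Lyve1, Folr2 and Vsig4 did not pass. Over all genes tested, 15.7% were called, 11.7% as higher and 4.00% as lower. The median log2 fold change was -0.51 over the 8 genes and -0.02 over all genes tested. In bulk tissue, fewer cells of a type and less RNA per cell cannot be told apart.

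**Figure D1:**
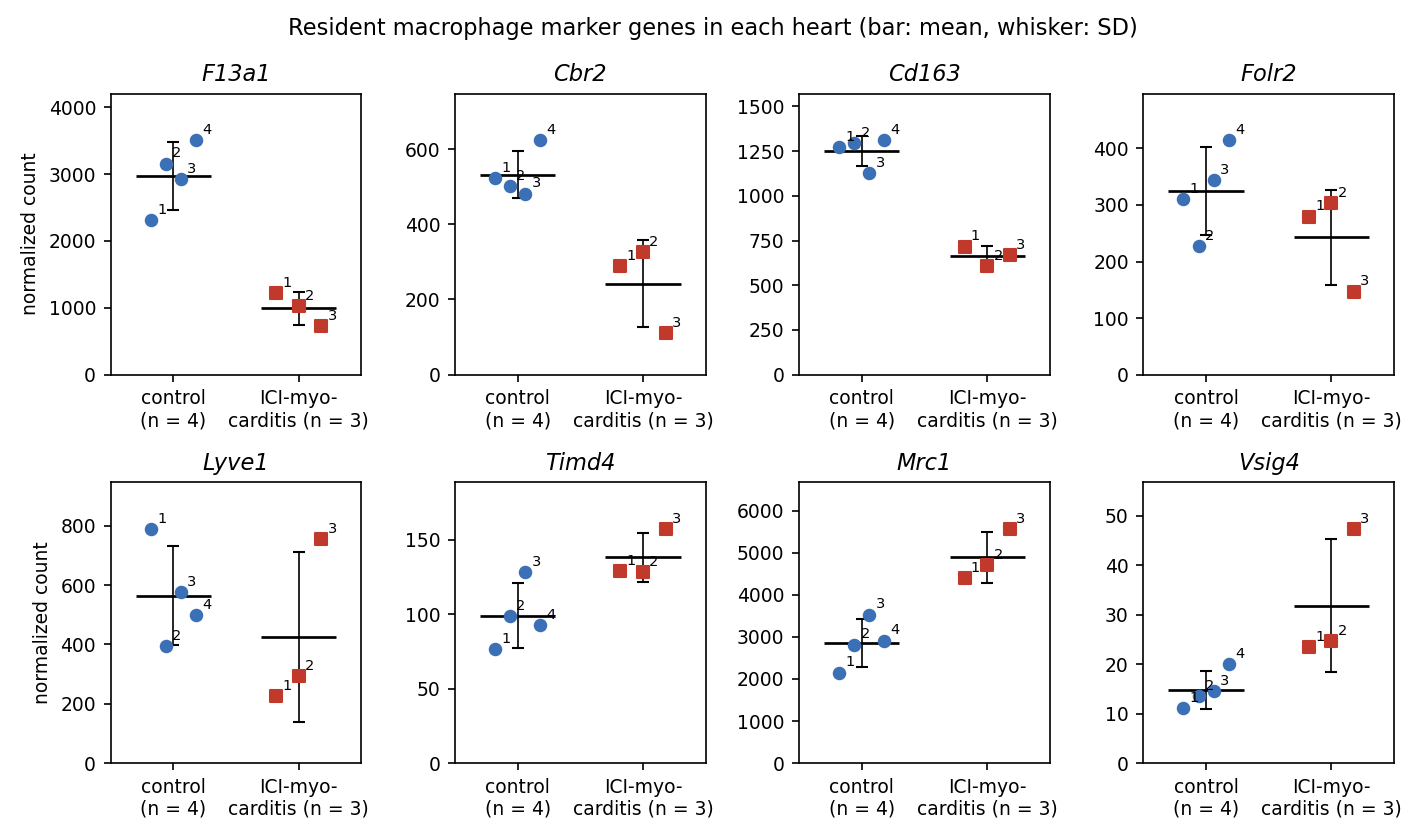
Normalized counts of the 8 marker genes in each library, with the replicate number beside each point, control as circles and ICI-myocarditis as squares, the group mean as a bar and the SD as a whisker. All 3 ICI-myocarditis hearts lie below all 4 controls for F13a1, Cbr2 and Cd163 and above them for Mrc1 and Vsig4, and the groups overlap for Folr2, Lyve1 and Timd4.

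F13a1 encodes the A chain of coagulation factor XIII, a transglutaminase that cross-links fibrin and matrix proteins. Controls 1 to 4 held 2308, 3155, 2922 and 3503 normalized counts of it, and ICI-myocarditis 1 to 3 held 1221, 1025 and 728. Every ICI-myocarditis heart lay below every control. The mean fell from 2972 ± 503 (SD, n = 4) to 991 ± 248 (SD, n = 3), and the log2 fold change was -1.60 (adjusted p = 0.00407 by limma, SE 0.233), or 3.03-fold lower. The call held in 17 of 17 alternative analyses, among them the one without control 4 (-1.51, adjusted p = 0.00802) and the one without control 2 (-1.56, adjusted p = 0.00241). In the authors' deposited table the log2 fold change of F13a1 was -1.58 (adjusted p = 1.24e-07).

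Cd163 encodes the scavenger receptor that takes up haemoglobin bound to haptoglobin. The 4 controls gave 1273, 1296, 1127 and 1310 normalized counts, the 3 ICI-myocarditis hearts 715, 606 and 666. The 2 groups were narrow and far apart, with coefficients of variation of 6.76% and 8.27%, the smallest control spread of the 8 genes. The mean fell from 1252 ± 84.7 (SD, n = 4) to 662 ± 54.8 (SD, n = 3), a log2 fold change of -0.92 with SE 0.167 (adjusted p = 0.00795, limma), or 1.89-fold lower. It passed in 16 of 17 alternatives and missed in the fit that blocks on replicate number (adjusted p = 0.0626).

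Cbr2 encodes a carbonyl reductase that reduces aldehydes and ketones and is abundant in resident macrophages of several tissues. Counts of Cbr2, normalized, stood at 523, 501, 481 and 623 in controls and at 289, 326 and 110 in ICI-myocarditis. All 3 ICI-myocarditis hearts were below the lowest control, and ICI-myocarditis 3 was far below the other two. The mean fell from 532 ± 63.0 (SD, n = 4) to 242 ± 115 (SD, n = 3), a log2 fold change of -1.28 with SE 0.356 (adjusted p = 0.0402, limma). This call is close to the threshold and held in 8 of 17 alternatives. Without ICI-myocarditis 3 the log2 fold change of Cbr2 was -0.79 (adjusted p = 0.0719), and the call was also lost without control 1, 3 or 4 or without ICI-myocarditis 1 (adjusted p = 0.0931, 0.0900, 0.0773 and 0.0502). With all libraries it was lost under edgeR, with scaling by total reads, without trend and robust variance and with the replicate block.

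Mrc1 encodes the mannose receptor CD206, an endocytic lectin. Mrc1 reached 2151, 2815, 3529 and 2911 normalized counts in controls and 4402, 4703 and 5567 in ICI-myocarditis. The groups did not overlap, with every ICI-myocarditis heart above every control. The mean rose from 2851 ± 564 (SD, n = 4) to 4890 ± 605 (SD, n = 3), a log2 fold change of 0.79 with SE 0.221 (adjusted p = 0.0395, limma), or 1.73-fold higher. It held in 9 of 17 alternatives. Leaving out any library but control 2 ended the call, with adjusted p = 0.0940, 0.0530 and 0.0612 without controls 1, 3 and 4, and 0.0716, 0.107 and 0.162 without ICI-myocarditis 1, 2 and 3. With all libraries it was lost without trend and robust variance and with the replicate block.

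Vsig4 and Timd4 had higher mean counts in ICI-myocarditis without passing the test. Vsig4 encodes a complement receptor of the immunoglobulin superfamily that binds fragments of C3. Levels of Vsig4 were low, at 11.1, 13.6, 14.5 and 20.02 normalized counts in controls and 23.5, 24.6 and 47.4 in ICI-myocarditis, so the groups did not overlap at this low level. The log2 fold change of Vsig4 was 1.012 (SE 0.422, 95% interval 0.06 to 1.96, limma adjusted p = 0.142). Its highest control was control 4, the library with fibrinogen transcripts, and without it the log2 fold change was 1.16 (adjusted p = 0.110). Timd4 encodes a receptor for phosphatidylserine, the lipid exposed by dying cells. Across libraries Timd4 had normalized counts of 76.6, 98.7, 128.4 and 92.6 in controls and 128.9, 128.3 and 157 in ICI-myocarditis. Control 3 lay between the 2 lowest ICI-myocarditis hearts, so the groups touched at their edge. The log2 fold change of Timd4 was 0.49 (SE 0.272, 95% interval -0.12 to 1.11, limma adjusted p = 0.261). That interval holds 0.

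Folr2 and Lyve1 had lower mean counts in ICI-myocarditis without passing the test. Folr2 encodes folate receptor beta, anchored in the membrane by a lipid. Its normalized counts were 311, 227, 344 and 414 in controls and 279, 303 and 147 in ICI-myocarditis. Only ICI-myocarditis 3 lay below all controls. The log2 fold change of Folr2 was -0.45 (SE 0.314, 95% interval -1.16 to 0.26, limma adjusted p = 0.380), and it was -0.12 without ICI-myocarditis 3. Lyve1 encodes a receptor for hyaluronan, a long sugar chain of the matrix. Its normalized counts were 789, 394, 576 and 498 in controls and 227, 292 and 754 in ICI-myocarditis. ICI-myocarditis 1 and 2 were below every control, while ICI-myocarditis 3 was second only to control 1. The log2 fold change of Lyve1 was -0.57 (SE 0.406, 95% interval -1.48 to 0.35, limma adjusted p = 0.393), and it ranged from -1.08 (adjusted p = 0.0728) without ICI-myocarditis 3 to -0.22 (adjusted p = 0.780) without ICI-myocarditis 1.

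In ICI-myocarditis 3, Lyve1 was thus high where Folr2 and Cbr2 were at their lowest of all 7 libraries. The lymphatic endothelial genes Mmrn1 and Reln, picked after their values were seen, were highest in that library too. Mmrn1 was at 785 normalized counts there, 265 and 179 in ICI-myocarditis 1 and 2, and 319 to 544 in controls. Reln was at 983 there, 207 and 231 in ICI-myocarditis 1 and 2, and 399 to 470 in controls. Other lymphatic markers were mixed in ICI-myocarditis 3. Pdpn was highest there as well, at 473. Nrp2, at 3332, lay within its control range of 1991 to 5761, and Prox1, at 1045, lay below its control range of 1464 to 3343. Over the 7 lymphatic markers, the summed normalized counts ran from 6924 to 11431 in controls and from 4098 to 8118 in ICI-myocarditis, and Ccl21a was at 0 in all 7 libraries. Of the 6 tested, 1 was called, Prox1, which heart muscle cells also express (-1.05 as log2 fold change, adjusted p = 0.0461 by limma). Prox1 lost its call without any library but control 2 (adjusted p up to 0.166). The part of lymphatic vessels in the Lyve1 values was not tested.

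By group separation, 3 of the 8 genes lay lower and 2 higher in all ICI-myocarditis hearts, where 11.3% and 17.3% of all genes tested did so (28.6% in either direction). In the authors' deposited table, 4 of the 8 had an adjusted p below 0.05, against 20.2% of the genes given one. These were F13a1, Cd163, Cbr2 and Mrc1. In that table Timd4 had a log2 fold change of 0.48 (adjusted p = 0.240), Vsig4 of 1.12 (0.0966), Folr2 of -0.42 (0.442) and Lyve1 of -0.41 (0.581).

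The ratio of Mrc1 to Cd163 within a library, a pair chosen after the values were seen, summarises the opposite directions. It was 1.69, 2.17, 3.13 and 2.22 in controls and 6.15, 7.76 and 8.36 in ICI-myocarditis. Every ICI-myocarditis value exceeded every control. Here and against F13a1, that had to follow from the separation of each gene alone, so it is no further result. Against F13a1, Mrc1 stood at 0.93, 0.89, 1.21 and 0.83 in controls and at 3.61, 4.59 and 7.65 in ICI-myocarditis. Such ratios do not depend on how libraries are scaled.

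Levels were compared between genes per kilobase of exon in the GENCODE M21 annotation. In controls, Mrc1 and F13a1 were level at 448 ± 88.5 and 441 ± 74.7 normalized counts per kilobase (SD, n = 4), with Cbr2 next at 401 ± 47.5, and these 3 did not differ beyond their spread. Cd163 (229 ± 15.5), Folr2 (210 ± 50.3) and Lyve1 (193 ± 57.5) formed a second step with overlapping ranges. Timd4 (45.6 ± 9.97) and Vsig4 (9.97 ± 2.54) were the lowest. In ICI-myocarditis, Mrc1 stood alone at 768 ± 94.97 normalized counts per kilobase (SD, n = 3). Cbr2, Folr2, F13a1, Lyve1 and Cd163 lay between 121 and 182 with overlapping ranges, followed by Timd4 at 63.6 ± 7.66 and Vsig4 at 21.5 ± 9.07. The order of Timd4 and Vsig4 below the rest was thus the same in both groups, while F13a1 and Cbr2 left the top step.

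The genes lie on 6 chromosomes of GRCm38, the build named in the submitters' processing notes, and all are annotated as protein coding. F13a1 spans chr13:36867178-37050244 on the minus strand, Cd163 chr6:124304656-124330527 on the plus strand, Cbr2 chr11:120729489-120732114 on the minus strand and Mrc1 chr2:14229392-14332057 on the plus strand. Timd4 spans chr11:46810800-46844332 (plus), Vsig4 chrX:96247203-96293438 (minus), Folr2 chr7:101839988-101857194 (minus) and Lyve1 chr7:110850607-110863239 (minus). The sequences before the transcription start of F13a1 and Cd163, the 2 decreases that held in most alternatives, and of Mrc1, the increase, are shown so that the promoters of genes that moved in opposite directions can be read side by side. They come from RefSeq on GRCm38.p6, run 5′ to 3′ on the gene's strand and end next to the annotated start, for Mrc1 next to the GENCODE start, which lies 22 bases before the RefSeq start. Capitals mark AGGAAG or its reverse complement CTTCCT, the core bound by ETS factors such as PU.1, the master regulator of macrophage genes.
F13a1: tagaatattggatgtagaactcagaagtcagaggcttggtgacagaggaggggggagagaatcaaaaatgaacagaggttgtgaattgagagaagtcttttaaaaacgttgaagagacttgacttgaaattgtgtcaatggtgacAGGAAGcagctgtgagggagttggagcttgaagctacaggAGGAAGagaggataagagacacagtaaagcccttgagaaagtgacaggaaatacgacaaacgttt
Cd163: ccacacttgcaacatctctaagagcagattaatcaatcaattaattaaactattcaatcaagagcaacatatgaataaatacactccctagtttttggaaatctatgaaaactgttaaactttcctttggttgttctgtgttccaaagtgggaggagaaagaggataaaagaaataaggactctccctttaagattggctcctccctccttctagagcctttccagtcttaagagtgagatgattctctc
Mrc1: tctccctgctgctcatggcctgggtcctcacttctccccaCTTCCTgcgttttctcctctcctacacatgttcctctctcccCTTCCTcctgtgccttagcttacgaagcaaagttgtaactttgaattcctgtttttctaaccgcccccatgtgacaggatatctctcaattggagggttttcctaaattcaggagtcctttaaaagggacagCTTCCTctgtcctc
The F13a1 window (chr13:37050245-37050494) held 2 matches, 65 and 105 bases before the start. The Mrc1 window (chr2:14229164-14229391) held 3, all on the opposite strand (36, 168 and 210 bases before the RefSeq start), and the Cd163 window (chr6:124304401-124304650) held 0. RefSeq windows of 250 bases were at hand for 7 of the 8 genes, 9 windows in all, and 6 of the 9 held the core, against 29.5% of 32851 promoter windows of the same length. This core was added after the longer PU.1 motif GAGGAAGT (2.44% of all windows) had given 0 of 9. Searched on both strands, the AP-1 motif TGANTCA (6.75%) matched 1, of Folr2. The STAT motif TTCNNNGAA (7.02%) and the IRF response element (2.98%) matched 0 of 9. GAGGAAGT contains the core. These counts describe letters only.

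Pan-macrophage genes rose in the same hearts. Of 17 tested, 15 were called, all higher, with a median log2 fold change of 2.59. T cell markers and some dendritic cell markers rose in these hearts too, and the part of other leukocytes in the 17 genes was not tested. Csf1r, the receptor for the main macrophage growth factor, was at 3109, 2859, 3057 and 2798 normalized counts in controls and 4991, 6590 and 12519 in ICI-myocarditis, a log2 fold change of 1.33 with SE 0.300 (adjusted p = 0.0178, limma). Adgre1, a surface receptor of mature macrophages listed under its older symbol Emr1, was at 792, 1247, 985 and 873 in controls and 4035, 4375 and 5801 in ICI-myocarditis, a log2 fold change of 2.28 with SE 0.220 (adjusted p = 0.00251, limma). The complement gene C1qb rose by 2.74 and the cathepsin gene Ctss by 4.29. Cd14 (0.09) and Mertk (0.94), named after their values were seen, were not called. The sign of Cd14 turned without control 2 (-0.07) or ICI-myocarditis 3 (-0.06). The highest value among the 8 resident markers was 1.012, of Vsig4. Csf1r lost its call without control 3 (adjusted p = 0.0545).

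Divided by Csf1r, 5 of the 8 resident markers were lower in all ICI-myocarditis hearts, where 65.0% of all other genes tested were too, a share near that of the members. Per 100 counts of Csf1r in the same library, F13a1 went from 101 ± 21.8 (SD, 4 controls) to 15.3 ± 9.32 (SD, 3 ICI-myocarditis hearts), Cd163 from 42.5 ± 4.51 to 9.62 ± 4.52 and Cbr2 from 18.1 ± 2.88 to 3.87 ± 2.62. Lyve1 went from 18.9 ± 4.82 to 5.002 ± 0.887 and Folr2 from 11.0 ± 2.88 to 3.79 ± 2.32, and for these 5 genes the groups did not overlap. Timd4 (3.36 ± 0.712 and 1.93 ± 0.663), Mrc1 (96.8 ± 19.7 and 68.0 ± 22.1) and Vsig4 (0.505 ± 0.151 and 0.408 ± 0.0551) had overlapping groups. ICI-myocarditis 3 gave the lowest ratio for F13a1, Cd163, Cbr2, Folr2, Timd4 and Mrc1, and it also had the most Csf1r. Per 100 counts of Emr1, which rose further, all 8 genes were lower without overlap, which also held for 87.2% of all other genes tested, and Mrc1 went from 297 ± 60.0 to 104 ± 7.15.

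**Figure D2:**
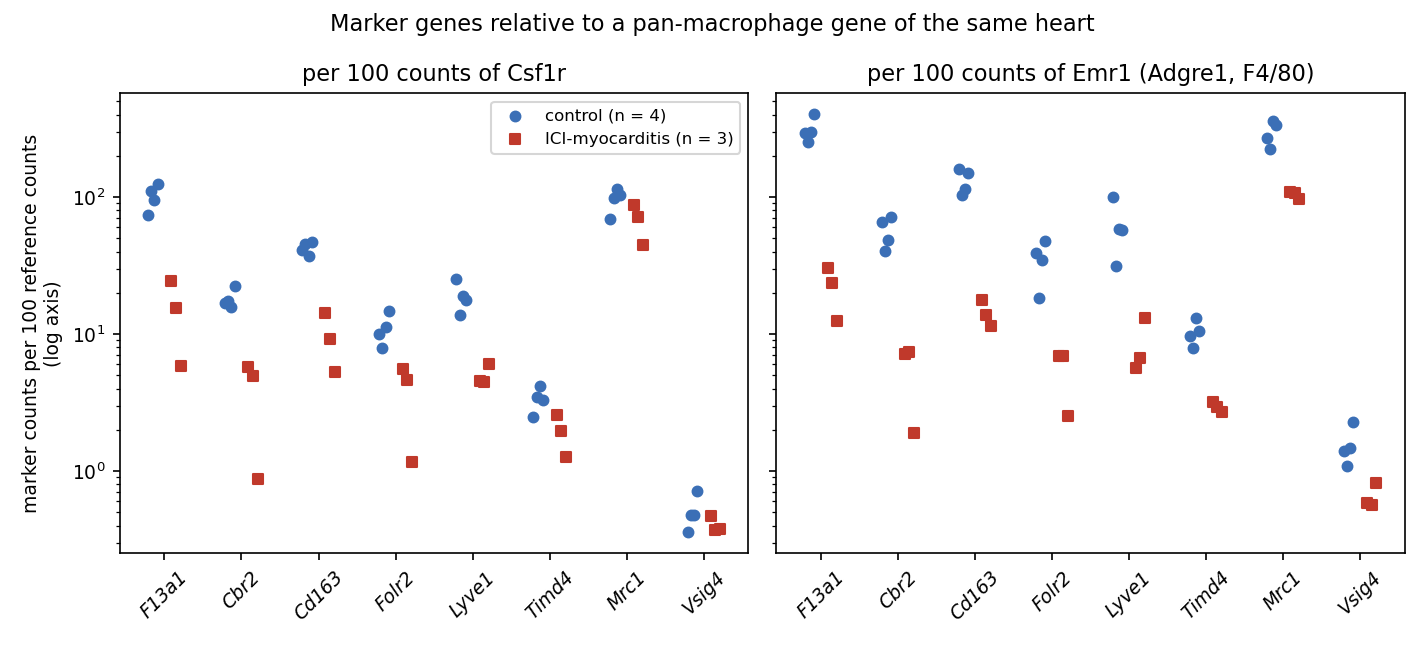
Counts of each marker gene per 100 counts of Csf1r (left) or Emr1 (right) in the same library, on a log axis, with 4 control libraries as circles and 3 ICI-myocarditis libraries as squares. Against Csf1r the groups are apart for F13a1, Cbr2, Cd163, Folr2 and Lyve1 and overlap for Timd4, Mrc1 and Vsig4, and against Emr1 they are apart for all 8 (65.0% and 87.2% of all other genes tested lie lower without overlap).

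A fit over all genes tested the same question after subtracting each library's mean log2 level of the 17 pan-macrophage genes, which was 9.34 ± 0.322 in the 4 controls and 11.7 ± 0.467 in the 3 ICI-myocarditis hearts (mean ± SD). All 8 members were lower on this relative scale, from -3.97 for F13a1 (limma adjusted p = 3.79e-06) to -1.36 for Vsig4 (limma adjusted p = 0.0166). Vsig4 lost its call without ICI-myocarditis 1 or 2 (adjusted p up to 0.0638). That count is no result about the members, because 89.5% of all genes tested were lower on it too (91.4% called in either direction). The median relative log2 fold change was -2.88 over the 8 genes and -2.40 over all genes. Each relative log2 fold change is the one on the deposited scaling minus 2.38, the rise of the pan-macrophage mean. The order of the genes, and their place above or below the median, is therefore the same on both scales and is no further result. Cd163 (-3.29, SE 0.375) and Cbr2 (-3.65, SE 0.4999) lay below the median of all genes, with Lyve1 at -2.94 and Folr2 at -2.83. Mrc1 (-1.58, SE 0.406), Timd4 (-1.88, SE 0.398) and Vsig4 lay above it. Relative to Csf1r alone, 5 of the 8 were called lower, beside 68.5% of all other genes tested, and Mrc1 (-0.54, limma adjusted p = 0.252), Timd4 (-0.84, 0.132) and Vsig4 (-0.32, 0.649) were not.

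**Figure D3:**
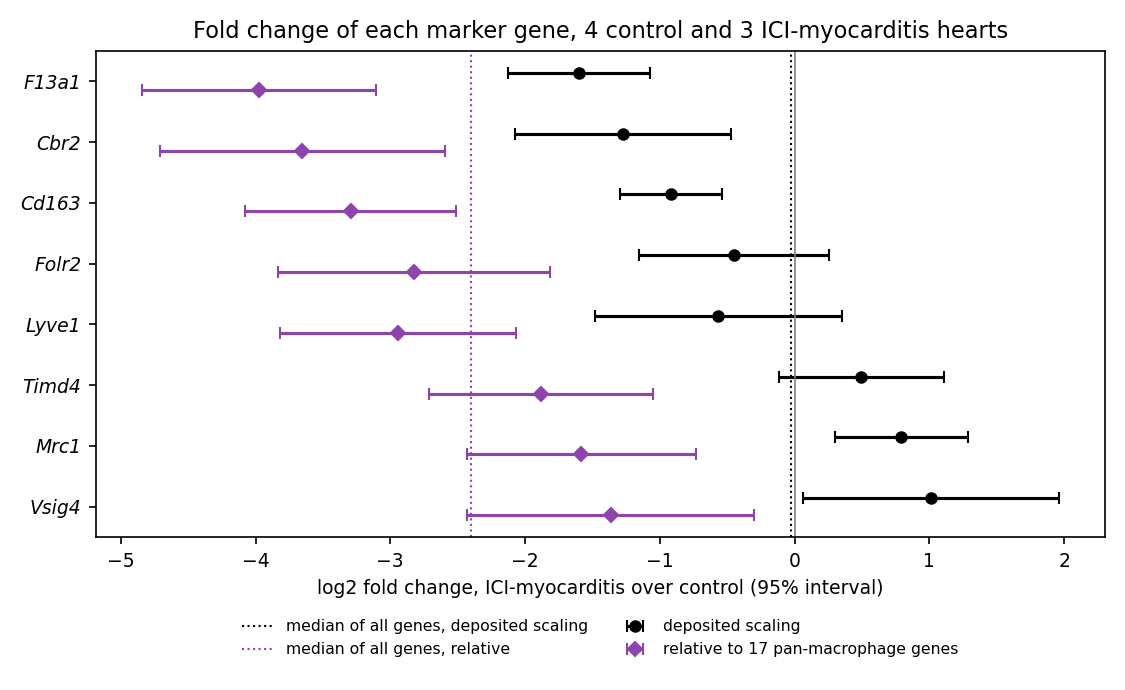
Log2 fold change of each marker gene, ICI-myocarditis (n = 3) over control (n = 4), with its 95% interval, on the deposited scaling (circles) and relative to the 17 pan-macrophage genes (diamonds), with dotted lines at the median of all genes on each scale. On the deposited scaling F13a1, Cbr2 and Cd163 lie left of 0 and Mrc1 and Vsig4 right of it. On the relative scale all 8 lie left of 0, where 89.5% of all genes tested were called lower too.

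A wider list of genes linked to resident heart macrophages showed both directions as well. Of 19 tested, 3 rose and 3 fell, with a median log2 fold change of -0.08. Among those that rose were Pltp (0.81) and Clec10a (1.19). Pltp, Clec10a and Mgl2 are named here after their values were seen. The chemokine gene Ccl24 was at 53.4, 49.3, 50.2 and 72.6 normalized counts in controls and 2.05, 15.2 and 1.53 in ICI-myocarditis (-3.50 as log2 fold change, adjusted p = 0.00814 by limma). Mgl2, a lectin gene (-2.31), and Ednrb, an endothelin receptor that vessels also express (-1.37), fell too. Pltp lost its call without control 3 or ICI-myocarditis 2 or 3 (adjusted p up to 0.0927), Mgl2 without control 3 or ICI-myocarditis 1 or 3 (up to 0.0788) and Clec10a without any library but control 2 (up to 0.176). Gas6, which bridges dying cells to receptors of the MERTK family, was not called (-0.08, SE 0.263, limma adjusted p = 0.879), and its sign turned with scaling by total reads (0.08) and without control 1 (0.04) or ICI-myocarditis 1 (0.11).

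Genes of entering monocytes and their progeny rose. Of 14 tested, 12 were called, all higher, with a median log2 fold change of 3.57. Ccr2 was at 66.5, 1099, 276 and 77.6 normalized counts in controls and 1483, 1643 and 1821 in ICI-myocarditis (3.04 as log2 fold change with SE 0.834, adjusted p = 0.0384 by limma), with control 2 far above the other controls. Its call held in 7 of 17 alternatives and was lost without any library but control 2 (adjusted p up to 0.123). Arg1 (3.82), Cd72 (4.33) and the MHC class II gene H2-Eb1 (3.91), which dendritic cells and B cells also express, rose in each of 17 alternatives.

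**Figure D4:**
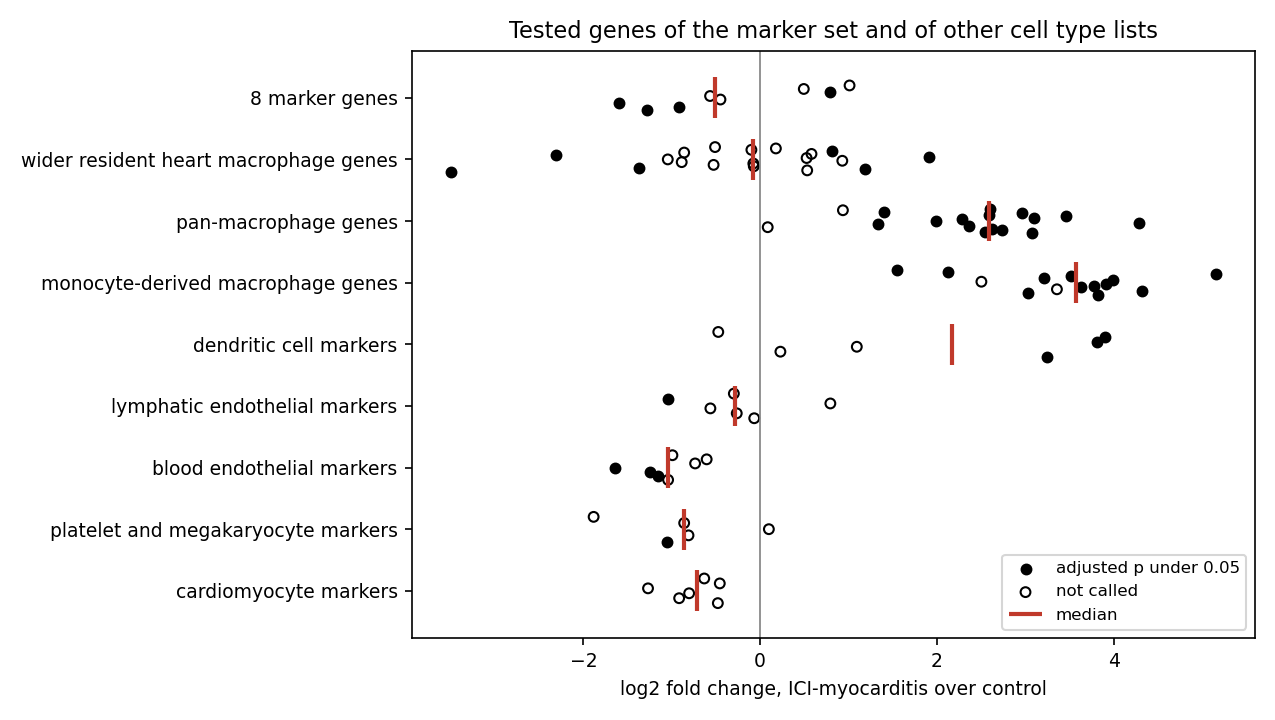
Log2 fold change, ICI-myocarditis (n = 3) over control (n = 4), of each tested gene in the marker set and in 8 other lists, filled where the limma adjusted p was below 0.05, with the median of each list as a vertical bar. The 8 marker genes spread to both sides of 0 with a median of -0.51, whereas the medians of the pan-macrophage and monocyte-derived lists are 2.59 and 3.57.

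Growth factors for macrophages were examined next. Csf1, a ligand of CSF1R, was at 1946, 2188, 1888 and 2109 normalized counts in controls and 2923, 4004 and 3072 in ICI-myocarditis, so the groups did not overlap (0.70 as log2 fold change with SE 0.187, adjusted p = 0.0337 by limma). It lost its call without any library but control 2 (adjusted p up to 0.151). Il34, the other ligand of that receptor, was not called (0.52, SE 0.315, limma adjusted p = 0.306). The receptor genes Csf2rb (3.18), Csf3r (2.91) and Csf2ra (1.84) rose. Without ICI-myocarditis 3, Csf3r (adjusted p = 0.0653) and Csf2ra (0.0511) lost their calls. In all, 6 of 9 tested genes of this list were called, each higher.

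The partners of each member were read from lists of genes that share a ligand, a substrate or a process with it. For Timd4, 4 of 17 tested genes of dying cell clearance rose (Axl by 1.48, Anxa1 by 1.38, Itgav by 1.011 and Itgb3 by 1.63) and 1 fell, Cd36 (-1.32), which heart muscle and endothelium also express. Itgb3 and Cd36 are named after their values were seen. The call was lost for Itgav without control 1 or ICI-myocarditis 2 or 3 (adjusted p up to 0.0770), for Itgb3 without control 3 or ICI-myocarditis 2 or 3 (up to 0.0841) and for Cd36 without control 3 or 4 or ICI-myocarditis 2 or 3 (up to 0.134). Havcr2, another TIM family gene and a T cell checkpoint, rose by 4.53. For Cd163, the haem oxygenase gene Hmox1 rose from 254 to 282 normalized counts in controls to 879 to 1718 in ICI-myocarditis (2.06 as log2 fold change with SE 0.254, adjusted p = 0.00303 by limma), and the ferritin gene Ftl1 rose by 1.23, a call lost without ICI-myocarditis 3 (adjusted p = 0.0509). The iron exporter gene Slc40a1 was called lower (-1.71, limma adjusted p = 0.0314), a call lost without control 1, 3 or 4 or ICI-myocarditis 2 or 3 (adjusted p up to 0.0949). The direction of Cd163 was thus opposite to that of Hmox1 in the same hearts.

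For Lyve1, the hyaluronan receptor genes Cd44 (2.52) and Hmmr (1.94) and the hyaluronan-binding protein gene Tnfaip6 (1.22) rose, the hyaluronidase gene Hyal1 fell by 0.97, and 5 of 9 tested genes did not pass. Hmmr lost its call without any library but control 2 or 4 (adjusted p up to 0.0824), as did Hyal1 (up to 0.0953), and Tnfaip6 lost it without control 3 or ICI-myocarditis 1 or 3 (up to 0.103). For Vsig4, C3 rose from 4389 to 9160 normalized counts in controls to 22859 to 65259 in ICI-myocarditis (2.50 as log2 fold change with SE 0.418, adjusted p = 0.00599 by limma). The receptor genes C3ar1 (2.51), Itgb2 (3.29), Itgam (2.59) and Itgax (4.44) also rose, making 5 of 6 tested. Hyal1 and Itgax are named after their values were seen, and Itgax lost its call without ICI-myocarditis 3 (adjusted p = 0.0542). For Mrc1, 3 of 6 related lectin genes rose, Mrc2 by 1.26, Ly75 by 3.48 and Clec7a by 2.59. Mrc2 lost its call without control 3 or ICI-myocarditis 2 or 3 (adjusted p up to 0.0576). For Cbr2, Cbr1 was called lower (-1.02, limma adjusted p = 0.0441, in 7 of 17 alternatives), and Cbr3 (0.65) and Cbr4 (-0.84) were not called, although Cbr4 passed without control 2 (adjusted p = 0.0299). Cbr1 lost its call without control 1, 3 or 4 or ICI-myocarditis 2 or 3 (adjusted p up to 0.175).

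Like Folr2 itself, none of 4 tested genes of folate uptake was called, with 0 of the 4 at an unadjusted p under 0.05. For F13a1, the transglutaminase gene Tgm2 was not called (0.995, limma adjusted p = 0.0607, or 0.0482 without control 1), and F13b, the carrier subunit made by the liver, did not exceed 1.25 normalized counts. Platelet genes moved with F13a1 in part. Of 5 tested, Gp1ba fell by 1.05 (limma adjusted p = 0.0124), and Ppbp (-1.88), Pf4 (-0.86), Gp9 (-0.81) and Itga2b (0.10) were not called. Gp9 and Itga2b are named after their values were seen, and the sign of Itga2b turned under edgeR (-0.05), under DESeq2 (-0.03) and without control 1 (-0.02) or 3 (-0.13). The 6 platelet genes summed to 719 to 1205 normalized counts in controls and 391.98 to 585 in ICI-myocarditis, against 2308 to 3503 and 728 to 1221 for F13a1 alone. Pf4 is also on the wider list of genes linked to resident heart macrophages. Its mean was 462 of a mean sum of 958 in controls, and 259 of 511 in ICI-myocarditis. The part of platelets in the F13a1 values was not tested.

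Other cell types moved in these hearts as well. Of 6 dendritic cell markers 3 rose, among them Flt3 (3.82) and Xcr1 (3.90), and their sum was 686 to 2257 normalized counts in controls and 1718 to 2400 in ICI-myocarditis. Dendritic cells can carry Mrc1, and their part in its rise was not tested. Of 7 blood endothelial markers 3 fell, Erg (-1.24), Emcn (-1.16) and Kdr (-1.65). Flt3 lost its call without control 1 or 3 or ICI-myocarditis 2 or 3 (adjusted p up to 0.0951), and Kdr without any library but control 2 or 4 (up to 0.0987). Genes of macrophages of other tissues gave no shared direction: Tmem119 rose by 2.07, Marco (3.31, limma adjusted p = 0.0513, or 0.00497 without control 2) and Gata6 (-0.34) were not called, and Spic, Cd5l and Clec4f were too low to test.

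The genes whose pattern over the 7 libraries was nearest to each member were found among 13018 genes, by the root mean square difference of log2 levels centred on each gene's mean. Mrc1 was nearest to Tlr4, an innate immune receptor gene (0.0790), and Hectd2 (0.103). Cd163 was nearest to Pgf (0.0978) and Dtwd2 (0.127), and F13a1 to Sec31b (0.162) and Dnahc7b (0.190). Cbr2 was nearest to Egflam (0.118) and Rgl3 (0.121), Vsig4 to P2rx4 (0.146) and Fam122b (0.152), and Timd4 to Cenpc1 (0.0908) and H3f3b (0.0933). Folr2 was nearest to Mpped2 (0.0739) and Fam120c (0.0939). Lyve1 had no close neighbour, with Crispld2 at 0.299 and Scd1 at 0.301. Among the members themselves, Timd4 and Mrc1 were the nearest pair (0.161), followed by Mrc1 with Vsig4 (0.302) and Cbr2 with F13a1 (0.361).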

How the data were processed

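Total RNA of 7 mouse hearts was sequenced as stranded paired-end libraries, per the labels' protocols, and group and replicate number came from the labels. The submitters' processing notes name STAR 2.7.3 and GRCm38. The counting program and annotation are not given in the sources used here. The deposited values are a signal: each library's gene counts were scaled by a single factor, a step read from the values. The authors' log2 fold change and p-value columns were read as deposited, per the file headers, and other statistic columns (score) were copied with them from the authors' deposited table. Whole reads were recovered from the smallest step of each library. The total was 20931730 to 39037176 reads. The table lists 27 genes under calendar dates and 2 names repeatedly, and these rows were not named.

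The main test was limma 3.58.1 (R 4.3.3, trend and robust variance) on log2(normalized count + 1) for genes reaching 10 normalized counts in 3 or more libraries, with Benjamini-Hochberg adjustment over 15258 genes. The deposited mice are separate animals, 4 and 3 per group. The relative fit first subtracted each library's mean log2 level of 17 pan-macrophage genes. Alternatives were edgeR 4.0.16 and DESeq2 1.42.0 on recovered reads, scaling by total reads or TMM, pseudocounts of 0.5 and 5, no filter or a filter of 50, plain variance, a replicate block and each library left out. On data simulated for this comparison over 15112 genes, limma recovered 22% of genes changed by 1 log2 unit and 91% of those changed by 2. The simulation changed 200 genes beside the pan-macrophage genes, whereas 2397 were called in the real data. These shares therefore need not hold for the real test.

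The members and lists were chosen with earlier results of these data known. Named beside the members were, per list, the 3 tested genes of lowest p (all where 4 or fewer were tested), defining markers at 0, Csf1r, Adgre1, Ccr2, Prox1, Csf1, Il34, C3, Hmox1, Gas6, Ctla4 and Pdcd1, and 2 nearest genes per member with a mean of at least 50 normalized counts. Other names are marked where they appear. Values of 1 gene of the wider resident list are not reported here.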

Additional observations from a re-analysis of the deposited data

Results flagged for a closer look

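In 7 of 102 results examined, 1 control lay so far from the other 3 that its gap to the nearest took a larger share of the range of the 4 values than Dixon's 95% critical value. None of the 8 resident macrophage markers was among them. Chance gives about 1 in 20, or 5 of these 102. Control 2 was the high library in 6 of the 7, with a share of 0.841 for Cd3g, 0.82904 for Lck, 0.924 for Csf2rb, 0.922 for Itgb2, 0.881 for Itgax and 0.950 for Marco. Control 3 was the separate library for Pgf, the nearest gene to Cd163, with a share of 0.841.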

How the results depend on the processing

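Over all genes, 2397 were called, and 986 to 3340 when 1 library was left out. Of the resident markers 4 were called, against 2 without trend and robust variance, 1 with the replicate block (F13a1) and 2 to 4 with 1 library left out. Relative to Csf1r alone 5 of 8 were called lower, beside 68.5% of all other genes tested. In the fit relative to the pan-macrophage genes, 7 to 8 were called when 1 library was left out. With all 7 libraries that fit called 91.4% of all genes tested, so these counts are no result about the members. In the other lists 73 genes were called, and 47 to 81 with 1 library left out. Of 135 member values under alternatives, 117 kept direction and status as called or not called, 18 lost the call and 0 changed sign. The 4 members that were not called had no call to lose and gained none. All losses fell on the called members, with 9 of 17 alternatives for Cbr2, 8 for Mrc1, 1 for Cd163 and 0 for F13a1. Sign changes occurred for genes near 0: Crispld2 gave 0.0727 under edgeR, 0.0879 under DESeq2, 0.131 with total reads and -0.48 to 0.33 with 1 library left out, and Reln 0.0736 under edgeR and 0.0907 under DESeq2. Itga2b gave -0.0515 and -0.0311 under the same tools, and with total reads Gas6 gave 0.0828 and Slc46a1 0.0299. With 1 library left out the ranges were -0.309 to 0.11 for Gas6, -0.53 to 0.0932 for Scd1, -0.132 to 0.404 for Itga2b, -0.0659 to 0.181 for Cd14, -0.88 to 0.184 for Mmrn1 and -1.02 to 0.103 for Reln. The cause was not tested. Scaling by total reads moved the median of all genes from -0.02 to 0.13. Same-numbered samples did not deviate together (Pearson correlation across genes -0.27, -0.21 and -0.08), and no sample correlated best with its own number. The replicate block called 1780 genes. Depth limits Vsig4 most, at 11.1 to 47.4 normalized counts.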
